A study of Mus musculus with 6 samples.

Results

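The annexins are a family of proteins that bind membrane phospholipids when calcium rises, and their transcripts were followed here in mouse macrophages that lacked or carried macrophage scavenger receptor 1 (MSR1). The 9 genes Anxa1, Anxa2, Anxa3, Anxa4, Anxa5, Anxa6, Anxa7, Anxa8 and Anxa11 were picked by symbol from the 52550 genes of the count table. The family was chosen on the low Anxa1 level in MSR1 KO macrophages, so the values of Anxa1 are a description with no test, and counts over the family lend no support to a family-wide change. The 3 other annexin genes in the table, Anxa9, Anxa10 and Anxa13, are given beside the members.

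RNA was sequenced from 3 libraries of MSR1 KO and 3 libraries of MSR1 WT macrophages, all of strain C57BL/6. The KO cells came from mice without MSR1 in any tissue, not from a macrophage-specific deletion. In both groups, marrow cells were grown for 7 days with 25 ng/ml M-CSF, the growth factor of macrophages, and then shared medium with bone marrow stem cells (BMSCs) across a transwell membrane for 48 h. No library of macrophages kept without BMSCs was analysed here. The paper describes the 3 libraries of a genotype as biological replicates, but the labels do not tie each library to its own mouse or culture. A p-value thus measures the spread between these libraries.

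Annexins share a core of repeated calcium and phospholipid binding domains, and differ in the N-terminal stretch that binds partners. Anxa1 is known as a protein induced by glucocorticoids that dampens inflammation through formyl peptide receptors. Anxa2 pairs with S100a10 at the cell surface and helps to turn plasminogen into plasmin. Anxa5 binds phosphatidylserine on dying cells, and several members, among them Anxa1, Anxa2, Anxa4, Anxa5 and Anxa6, gather at torn plasma membrane. Macrophages use these proteins in phagocytosis, membrane repair and the end of inflammation.

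The libraries held 36143518 to 47417448 counts. Values are given as CPM, counts scaled to a common library size with TMM factors, and 16402 genes had enough counts for a test. Msr1 itself had 59.0, 45.8 and 43.0 CPM in MSR1 KO replicates 1 to 3 against 183, 193 and 223 CPM in MSR1 WT replicates 1 to 3. The MSR1 KO level was thus 24.7% of the MSR1 WT level, and a count per gene does not tell from which exons the remaining reads came. Libraries of a genotype differed beyond sampling noise, and principal component 1, which held 34.7% of the variance, parted the genotypes.

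The stretches before the transcription start of the members that differed most and least are shown first, because they are the regulatory sequence nearest to the values below. They are RefSeq sequences on GRCm38.p6, found for 7 of the 9 members, and Anxa3 and Anxa6 had no entry. Capitals mark the letters of the motifs searched on both strands. Those were the TATA box TATAAA, the AP-1 site TGAGTCA, the core of the GC box CCGCCC (read as GGGCGG on the other strand) and the core of the interferon response element. Each stretch is written 5′ to 3′ on the strand of its gene and avoids annotated exons, except for the pair of short stretches around a TATA box, which lie within first exons of longer annotated transcripts.
Anxa1, TATA box, chr19:20390686-20390715, minus strand: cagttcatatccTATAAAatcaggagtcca
Anxa2, TATA box, chr9:69453654-69453682, plus strand: ggatgGGGCGGgTATAAAagccccaccca
Anxa2, farther upstream, chr9:69453433-69453619, plus strand: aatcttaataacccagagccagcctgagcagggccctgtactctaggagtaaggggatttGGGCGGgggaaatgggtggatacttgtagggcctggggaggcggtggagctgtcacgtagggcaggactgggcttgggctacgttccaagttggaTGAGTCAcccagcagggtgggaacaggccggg
Anxa11, chr14:25841905-25842154, plus strand: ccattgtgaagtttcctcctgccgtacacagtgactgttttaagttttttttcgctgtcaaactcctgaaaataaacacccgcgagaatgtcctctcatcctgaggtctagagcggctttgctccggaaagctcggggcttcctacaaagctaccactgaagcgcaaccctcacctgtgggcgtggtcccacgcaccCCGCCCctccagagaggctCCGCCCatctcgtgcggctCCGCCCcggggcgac

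The TATA box of Anxa1 began 32 bases before the RefSeq start, and that of Anxa2 began 17 bases before it. Over windows of 300 bases around the start, the TATA box was found in 3 of 12 annexin windows (Anxa1, Anxa2 and Anxa10) and in 13.6% of all 32851 windows. The AP-1 site was found in 2 of 12, those of Anxa2 and Anxa10, and in 5.2% of all windows. The GC box core was found in 5 of 12 annexin windows, which belong to Anxa2, Anxa4, Anxa7 and Anxa11, and in 35.7% of all windows. The interferon element core was found in 0 of 12 annexin windows and in 3.44% of all windows. In the 250 bases before the start, G and C made up 46.0% for Anxa1, 62.4% for Anxa2 and 58.0% for Anxa11, against a median of 52.4% over all windows. These matches are descriptions of letters, and binding of a factor was not measured.

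Anxa1 (ENSMUSG00000024659.14, GRCm38 chromosome 19 from 20373428 to 20390944, minus strand) was the member with the lowest level in MSR1 KO relative to MSR1 WT macrophages. Its 3 MSR1 KO libraries had 7066, 7515 and 9598 counts, and its 3 MSR1 WT libraries had 15244, 18699 and 18874. In CPM these were 197, 189 and 207 against 370, 394 and 457. The groups did not overlap, and the highest MSR1 KO library was far below the lowest MSR1 WT library. Means were 197 ± 8.88 CPM in MSR1 KO and 407 ± 45.0 CPM in MSR1 WT (SD, n = 3 each), so the MSR1 KO level was 48.5% of the MSR1 WT level, a log2 fold change of -1.04 with a standard error of 0.090. This value stands at position 458 from the lowest among all tested genes, and 2.79% of them were as low. Among the 2169 genes with a mean of at least 100 CPM it stands at position 9, and by its difference of -209.6 CPM it stands at position 22.

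Anxa2 (ENSMUSG00000032231.14, chromosome 9 from 69453620 to 69491795, plus strand), the plasminogen-binding annexin whose upstream sequence is printed above, was also lower. It had 226, 226 and 233 CPM in MSR1 KO macrophages and 343, 358 and 341 CPM in MSR1 WT macrophages. The values within each genotype lay close together, and the groups were well apart. Anxa2 fell from 348 ± 9.10 to 229 ± 3.94 CPM (SD, n = 3 each), to 65.8% of the MSR1 WT level. The log2 fold change was -0.60 with a standard error of 0.060, and edgeR's quasi-likelihood test gave an adjusted p of 0.0045 over all genes. Of its exon bases, 2.63% are shared with Gm16144 on the opposite strand, and the strand setting of the counting is not given in the sources used here.

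Anxa3 (ENSMUSG00000029484.12, chromosome 5 from 96793339 to 96845966, plus strand), an annexin abundant in myeloid cells, was the last member past the threshold. Its level was 139, 114 and 134 CPM in MSR1 KO macrophages against 182, 175 and 161 CPM in MSR1 WT macrophages. The groups did not overlap, but the gap between them was narrower than for Anxa1 or Anxa2. Anxa3 fell from 173 ± 10.6 to 129 ± 13.1 CPM (SD, n = 3 each), to 74.5% of the MSR1 WT level, with a log2 fold change of -0.42, a standard error of 0.093 and an adjusted p of 0.041 in the same edgeR fit. That call was lost when any 1 of the MSR1 KO libraries, MSR1 WT replicate 1 or MSR1 WT replicate 2 was left out, with adjusted p-values of 0.077 to 0.16 by edgeR and a log2 fold change of -0.47 to -0.34. Its exons share 3.07% of their bases with Gm42603 on the same strand, so some reads may belong to either gene.

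The 5 remaining members that could be tested did not pass the threshold. Anxa5 (ENSMUSG00000027712.13, chromosome 3 from 36448923 to 36475894), the phosphatidylserine binder, had 478, 485 and 506 CPM in MSR1 KO and 536, 563 and 508 CPM in MSR1 WT macrophages. The groups just failed to touch, since the highest MSR1 KO library was next to MSR1 WT replicate 3, and the means of 489.9 ± 14.5 and 536 ± 27.3 CPM (SD, n = 3 each) gave a log2 fold change of -0.13 (standard error 0.066, edgeR adjusted p = 0.34). Anxa4 (ENSMUSG00000029994.17, chromosome 6 from 86736840 to 86793584), known from epithelial membranes and from membrane repair, had 199.9, 198 and 189 CPM against 207, 213 and 206 CPM. These values did not overlap either, yet the log2 fold change was only -0.09 (standard error 0.062, edgeR adjusted p = 0.48), that is 93.7% of the MSR1 WT level.

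Anxa6 (ENSMUSG00000018340.13, chromosome 11 from 54979108 to 55033445), an annexin with a doubled core that acts at endosomes and at membrane wounds, had 275, 269 and 312 CPM in MSR1 KO and 297, 306 and 293 CPM in MSR1 WT macrophages. Anxa7 (ENSMUSG00000021814.17, chromosome 14 from 20455260 to 20480133), linked to membrane fusion and secretion, had 118, 126 and 142 against 137, 145 and 130 CPM. The groups overlapped in both genes, through MSR1 KO replicate 3, which had the highest Anxa6 level of all 6 libraries. Their log2 fold changes were -0.07 (standard error 0.075, edgeR adjusted p = 0.70) and -0.09 (standard error 0.088, edgeR adjusted p = 0.65). Anxa11 (ENSMUSG00000021866.15, chromosome 14 from 25842156 to 25886804), which carries RNA granules on lysosomes, had 48.4, 48.4 and 51.5 CPM against 51.1, 50.1 and 47.6 CPM. It was the member with the least difference, at 99.6% of the MSR1 WT level and a log2 fold change of -0.01 (standard error 0.075, edgeR adjusted p = 0.98), and the sign of this value turned when 1 library was left out.

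Anxa8 (ENSMUSG00000021950.15, chromosome 14 from 34085981 to 34100571) had 0, 10 and 12 counts in MSR1 KO macrophages and 0, 4 and 0 counts in MSR1 WT macrophages. A count of 0 allows up to 3 counts per library, which covers counting error only, and the gene had too few counts to be tested. Outside the members, Anxa10 and Anxa13 had 0 counts in all 6 libraries. Anxa9 (ENSMUSG00000015702.13, chromosome 3 from 95296096 to 95307176), an atypical annexin, went the other way, with 8.32, 9.70 and 11.9 CPM in MSR1 KO and 5.29, 6.07 and 8.28 CPM in MSR1 WT macrophages. Every MSR1 KO library lay above every MSR1 WT library, though the highest MSR1 WT value almost met the lowest MSR1 KO value, and the log2 fold change of 0.61 (standard error 0.21) had an edgeR adjusted p of 0.16. Of its exon bases, 7.96% are shared with Mindy1 and 6330562C20Rik.

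**Figure D1:**
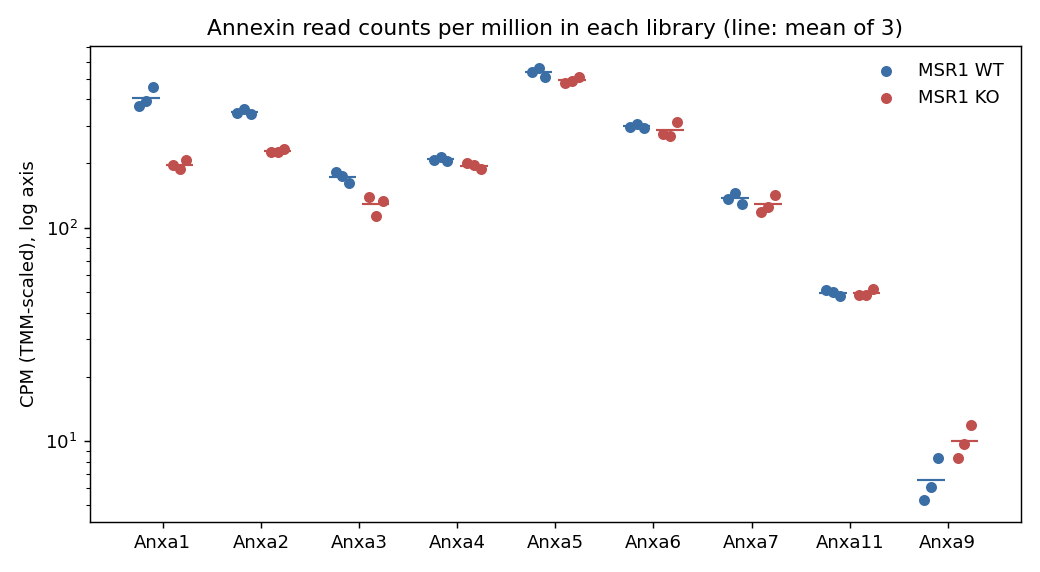
Level of each annexin in each library, with CPM on a log axis, MSR1 WT in blue, MSR1 KO in red, each point a library and each line the mean of 3. The MSR1 KO points of Anxa1, Anxa2 and Anxa3 lie clearly under the MSR1 WT points, those of Anxa4 and Anxa5 lie just under them, and those of Anxa6, Anxa7 and Anxa11 overlap.

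Of the 9 members, 8 could be tested, and 3 of these 8 were lower and 0 were higher in MSR1 KO macrophages at an adjusted p under 0.05. Over all tested genes, 2.66% were lower and 2.25% were higher by this rule. The counts of 3 and 0 were also those at an unadjusted p under 0.05 and those by DESeq2's Wald test. At an unadjusted p under 0.05, 10.2% of all genes were lower and 8.65% higher, and by DESeq2 5.2% were lower and 4.54% higher. Apart from Anxa1, 2 of 7 members were lower. The study's own definition is a fold change above 1.5 with an unadjusted p under 0.05. It was applied here to the edgeR fit and not to the authors' own comparison. Under it Anxa1 and Anxa2 were lower, as were 5.05% of all genes. Anxa9, which is no member, met the same definition in the other direction, as did 3.59% of all genes. Every MSR1 KO library was below every MSR1 WT library for 5 of the 8 members (13.4% of all genes) and above for 0 (12.1% of all genes). For a single gene, 3 libraries against 3 cannot give a two-sided p under 0.1 in an exact permutation test. Since the family was selected on this contrast, nothing is read from these counts.

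Log2 fold changes were negative for 8 of 8 members and for 50.4% of all genes, but their sizes were unequal. The median of the members was -0.11, and -0.09 without Anxa1, beside a median of -0.0023 over all tested genes. The 3 lowest members ranged from -1.04 to -0.42, while the other 5 lay between -0.13 and -0.01. Summed over the members, the annexin level was 1655 to 1775 CPM in MSR1 KO macrophages and 2123 to 2205 CPM in MSR1 WT macrophages, or 79.0% of the MSR1 WT level. In RNA from a whole culture, fewer cells of a type and less RNA per cell cannot be told apart.

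**Figure D2:**
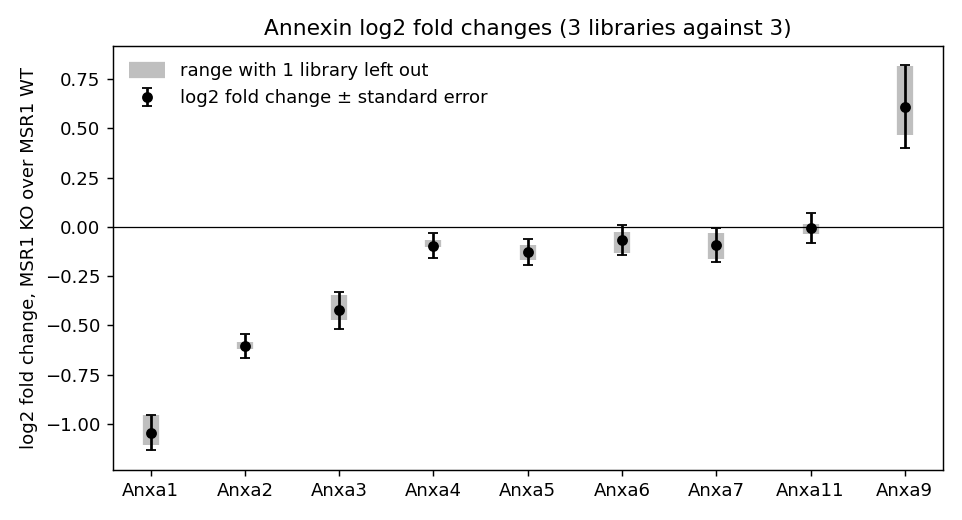
Log2 fold change of MSR1 KO over MSR1 WT for each annexin with enough counts, with points for the fitted value, bars for its standard error and grey boxes for the range when 1 library was left out. Anxa1, Anxa2 and Anxa3 stand at -1.04, -0.60 and -0.42, Anxa4 to Anxa11 lie near 0, and Anxa9, which is not a member, stands at 0.61 with the widest bar.

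Levels of different genes were compared as CPM per kilobase of annotated exon. In MSR1 WT macrophages Anxa5 was the most abundant annexin at 301 ± 15.3 CPM per kilobase (SD, n = 3), followed by Anxa1 at 140 ± 15.4, Anxa6 at 102 ± 2.28 and Anxa2 at 93.1 ± 2.44. The MSR1 WT ranges of these 4 genes did not overlap. Anxa3 at 47.4 ± 2.90 and Anxa4 at 44.9 ± 0.852 CPM per kilobase were not told apart by their ranges, and Anxa7 (22.9 ± 1.29) and Anxa11 (12.0 ± 0.435) came after them. Anxa9 reached 3.16 CPM per kilobase and Anxa8 stood last.

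In MSR1 KO macrophages Anxa5 was again the most abundant, at 276 ± 8.18 CPM per kilobase (SD, n = 3). Anxa6 (97.4 ± 7.99) stood ahead of Anxa1 (67.8 ± 3.05), and Anxa1 came close to Anxa2 (61.3 ± 1.06). Anxa4 (42.1 ± 1.27) was above Anxa3 (35.3 ± 3.6) without overlap. The order in the middle depends on the length used. With the length of the longest coding transcript, an alternative chosen after seeing the data, Anxa5, Anxa1, Anxa2 and Anxa6 led in MSR1 WT, and Anxa5, Anxa2, Anxa1 and Anxa6 led in MSR1 KO macrophages. With that length the library ranges of Anxa1 and Anxa2 overlapped in MSR1 WT, as did those of Anxa1 and Anxa6 in MSR1 KO macrophages, so these neighbours were not told apart.

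As a share of all annexin CPM per kilobase, Anxa1 made up 16.8%, 17.2% and 20.6% in MSR1 WT macrophages and 11.1%, 10.8% and 11.01% in MSR1 KO macrophages. The share of Anxa2 was 12.0% to 12.2% in MSR1 WT and 9.70% to 10.1% in MSR1 KO libraries. Shares add up to the whole, so a smaller share of these genes raises the others. The share of Anxa5 was 37.6% to 40.3% in MSR1 WT and 44.2% to 45.4% in MSR1 KO libraries, and that of Anxa6 was 13.2% to 13.5% and 15.3% to 16.5%.

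**Figure D3:**
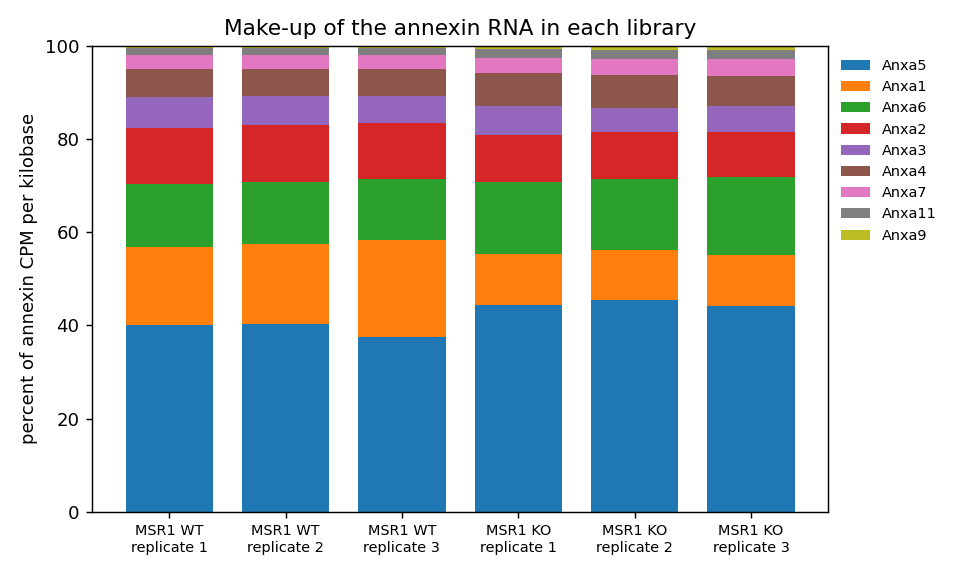
Make-up of the annexin RNA in each library, as the percent of summed annexin CPM per kilobase taken by each gene, in stacked bars that each stand for a library. The orange band of Anxa1 is 16.8% to 20.6% high in the MSR1 WT bars and 10.8% to 11.1% in the MSR1 KO bars, while the blue band of Anxa5 is taller in the MSR1 KO bars.

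Ratios of counts within a library do not depend on its depth or scaling. For each read of Anxa5 there were 0.411, 0.389 and 0.408 reads of Anxa1 in MSR1 KO macrophages and 0.689, 0.70 and 0.899 in MSR1 WT macrophages. The highest of these, in MSR1 WT replicate 3, came from the library with the highest Anxa1 level. The ratio of Anxa2 to Anxa5 was 0.461 to 0.474 in MSR1 KO and 0.636 to 0.671 in MSR1 WT libraries, and that of Anxa3 to Anxa5 was 0.235 to 0.290 and 0.311 to 0.339. None of these 3 ratios overlapped between the genotypes, whereas the ratio of Anxa6 to Anxa5 did, at 0.555 to 0.617 in MSR1 KO and 0.544 to 0.577 in MSR1 WT libraries. The ratio of Anxa1 to Anxa2 was 0.834 to 0.885 in MSR1 KO and 1.08 to 1.34 in MSR1 WT libraries, so that the level of Anxa1 differed by more than that of Anxa2.

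The genes whose levels ran most like Anxa1 over the 6 libraries were looked up among the 9210 tested genes with a mean of at least 10 CPM, by the root-mean-square difference of log2 CPM after each gene was centred. The nearest was Epas1, the hypoxia-regulated transcription factor HIF-2α, at a difference of 0.063. It had 14.3, 14.7 and 14.9 CPM in MSR1 KO and 29.0, 27.5 and 32.7 CPM in MSR1 WT macrophages. Rnf128, a ubiquitin ligase, and Agpat1, an enzyme of phospholipid synthesis, followed at 0.12 each. Anxa2 was at position 81 with 0.24 and Anxa3 at position 355 with 0.34. These are descriptions of 6 libraries that fall into the genotypes.

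Partners of the annexins were taken from a list of 28 genes, of which 26 were tested. This list and the gene lists after it were chosen with earlier results of these data known. Their counts and p-values are thus descriptions of these libraries. Of the 26 tested, 4 were lower (S100a6, S100a11, Ahnak and Capn2) and 2 were higher (Fpr2 and Chmp4b) by edgeR's adjusted p. By the same rule, 2.66% of all genes were lower and 2.25% were higher. The median log2 fold change of the partners was -0.10. Without MSR1 WT replicate 1 none of the 26 was past the threshold, and with any other library left out 1 to 5 were. Without MSR1 WT replicate 1, 0.314% of all genes were called lower, against 0.493% to 2.21% with any other library left out.

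S100 proteins are small calcium sensors, and several bind the N-terminal stretch of an annexin. Of 6 listed, 5 were tested, 2 were lower and 0 were higher by edgeR (4 and 0 at an unadjusted p under 0.05, and 3 and 0 by DESeq2, beside the shares of 10.2% and 5.2% lower over all genes), with negative log2 fold changes in all 5 and a median of -0.48. S100a11, the partner of Anxa1, had 87.3, 88.9 and 95.2 CPM in MSR1 KO and 129, 115 and 133 CPM in MSR1 WT macrophages. It fell from 126 ± 9.22 to 90.5 ± 4.18 CPM (SD, n = 3 each), or by a log2 fold change of -0.48 (standard error 0.081, edgeR adjusted p = 0.023). S100a6, which also binds annexins, had 38.9, 45.4 and 37.2 CPM against 54.6, 63.7 and 68.4 CPM, with a log2 fold change of -0.62 (standard error 0.11, edgeR adjusted p = 0.027). In both genes the genotypes did not overlap. With 1 library left out, S100a11 was called in 3 of 6 fits (without MSR1 KO replicate 3, MSR1 WT replicate 2 or MSR1 WT replicate 3) and S100a6 in 1 of 6 (without MSR1 KO replicate 2).

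S100a10, the obligate partner of Anxa2 in its surface complex, had 22.4, 26.4 and 32.0 CPM in MSR1 KO and 25.3, 36.3 and 32.8 CPM in MSR1 WT macrophages. These values overlapped and gave a log2 fold change of -0.22 (standard error 0.17, edgeR adjusted p = 0.54). For each read of Anxa2 there were 0.099, 0.117 and 0.137 reads of S100a10 in MSR1 KO and 0.074, 0.101 and 0.096 in MSR1 WT macrophages, which also overlapped. S100a4, known from motile cells, differed by -0.72 on the log2 scale (standard error 0.19, edgeR adjusted p = 0.077), and S100a1 by -0.28 (standard error 0.12, edgeR adjusted p = 0.26). Their MSR1 KO libraries were below their MSR1 WT libraries. S100b had 24, 4 and 4 counts against 9, 14 and 0 and was not tested.

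The formyl peptide receptors, through which Anxa1 and its N-terminal peptides act, had higher values in MSR1 KO macrophages. Fpr2 had 50.6, 53.5 and 44.9 CPM in MSR1 KO and 25.6, 28.1 and 37.0 CPM in MSR1 WT macrophages. It rose from 30.2 ± 6.03 to 49.7 ± 4.35 CPM (SD, n = 3 each), or by a log2 fold change of 0.72 (standard error 0.14, edgeR adjusted p = 0.032). With 1 library left out the call of Fpr2 was kept in 1 of 6 fits, that without MSR1 WT replicate 3, and the log2 fold change was 0.61 to 0.89. Fpr1 had 125, 133 and 129 CPM against 102, 94.5 and 122 CPM, again without overlap, and the log2 fold change, 0.28 with a standard error of 0.099, had an edgeR adjusted p of 0.17. For each read of Fpr2 there were 3.89, 3.53 and 4.59 reads of Anxa1 in MSR1 KO macrophages and 14.5, 14.0 and 12.3 in MSR1 WT macrophages. Anxa1 was first described as an inhibitor of phospholipase A2, and its listed genes Pla2g4a and Pla2g6 had log2 fold changes of -0.14 (edgeR adjusted p = 0.64) and -0.08 (edgeR adjusted p = 0.83), with overlap in both.

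In the plasminogen system, which Anxa2 serves at the cell surface, 5 of 6 listed genes were tested and 0 were past the threshold, with a median log2 fold change of 0.0051. At an unadjusted p under 0.05 edgeR had 2 lower and 2 higher, and DESeq2's Wald test called 2 lower (Plau and Plaur) and 1 higher (Plgrkt), under rules that passed 10.2% and 5.2% of all genes as lower and 8.65% and 4.54% as higher. Plg, plasminogen itself, had 0 counts in every library. Plgrkt, a plasminogen receptor, had 53.1 ± 5.80 CPM in MSR1 KO and 42.0 ± 0.344 CPM in MSR1 WT libraries (SD, n = 3 each), with a log2 fold change of 0.34 (edgeR adjusted p = 0.087). Plau, the urokinase activator, and its receptor Plaur had 34.8 ± 4.38 against 50.2 ± 8.50 CPM and 20.3 ± 2.31 against 27.1 ± 2.85 CPM (SD, n = 3 each). Their log2 fold changes of -0.53 and -0.42 had edgeR adjusted p-values of 0.075 and 0.10. Serpinb2, an inhibitor of urokinase, had 1.98, 2.14 and 1.68 CPM in MSR1 KO and 0.655, 1.26 and 0.968 CPM in MSR1 WT macrophages, without overlap. Its log2 fold change of 0.997 (standard error 0.32) was the largest in size among the 5 tested genes, with an edgeR adjusted p of 0.13. A further gene of this list is not reported here and was left out of the counts above.

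Among 12 other partners and membrane repair genes, 2 were lower and 1 was higher by edgeR's adjusted p, beside 2.66% and 2.25% of all genes. Their median log2 fold change was -0.07. Ahnak, a giant scaffold that binds Anxa2 with S100a10, had 807, 663 and 575 CPM in MSR1 KO and 953, 1067 and 980 CPM in MSR1 WT macrophages, which did not overlap. It fell by 0.55 on the log2 scale (standard error 0.12, edgeR adjusted p = 0.039), and with 1 library left out the call was kept only without MSR1 KO replicate 1. Capn2, the large subunit of m-calpain, a calcium-activated protease, fell from 141 ± 9.97 to 109 ± 3.21 CPM (SD, n = 3 each), with a log2 fold change of -0.37 (edgeR adjusted p = 0.035), and with 1 library left out it was called only without MSR1 WT replicate 3. Neither Ahnak nor Capn2 was called without a filter. Chmp4b, the ESCRT-III subunit that closes membrane wounds, rose from 250 ± 4.38 to 317 ± 29.0 CPM (SD, n = 3 each), or by a log2 fold change of 0.34 (edgeR adjusted p = 0.049). Chmp4b was not past the threshold with any library left out (edgeR adjusted p = 0.065 to 0.16), without a filter, or when libraries were scaled by their size alone. Pdcd6ip, known as ALIX, and Myof, myoferlin, had log2 fold changes of -0.07 and -0.15 and edgeR adjusted p-values of 0.62 each.

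**Figure D4:**
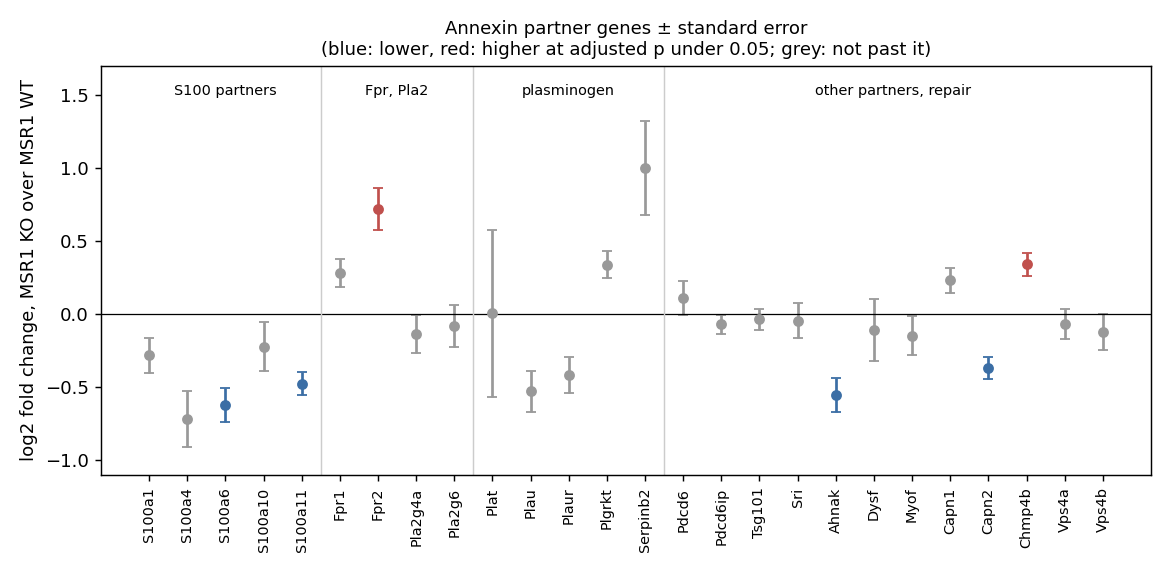
Log2 fold change of MSR1 KO over MSR1 WT for the 26 tested partner genes, grouped by role, with bars for the standard error. Blue points (S100a6, S100a11, Ahnak and Capn2) are lower and red points (Fpr2 and Chmp4b) higher at an adjusted p under 0.05, and all 5 S100 points lie below 0.

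Because Anxa1 is a target of glucocorticoids, 11 genes of that response were listed, and all 11 were tested. Only Klf9, a transcription factor induced by the hormone, was lower, from 12.9 ± 1.95 to 6.93 ± 0.575 CPM (SD, n = 3 each), or by a log2 fold change of -0.89 (standard error 0.15, edgeR adjusted p = 0.023). Its call was lost with any library but MSR1 WT replicate 3 left out. The other 10 were not past the threshold, and the listed genes had a median of -0.0061 on the log2 scale. Tsc22d3, which encodes GILZ, had 76.8 CPM in MSR1 KO and 77.1 CPM in MSR1 WT libraries on average, and the receptor gene Nr3c1 had 127 and 120 CPM. Their edgeR adjusted p-values were 0.99 and 0.81. Sgk1, a kinase induced by the hormone, had 83.7 and 75.3 CPM.

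Markers of the cells were read beside these results. All 11 macrophage markers had counts in the libraries, with summed levels of 24969 to 26243 CPM in MSR1 KO and 25403 to 28299 CPM in MSR1 WT libraries. Of these 11, Mrc1 was lower and Ptprc, Fcgr1 and Aif1 were higher by edgeR's adjusted p, beside 2.66% and 2.25% of all genes. With 1 library left out, Fcgr1 was called in 4 of 6 fits, Aif1 in 2, and Mrc1 and Ptprc in 1 each. Of 16 stromal markers none was at 0, and 6 (Col6a1, Pdgfra, Pdgfrb, Cxcl12, Acta2 and Tagln) were lower and 0 higher by edgeR's adjusted p. At an unadjusted p under 0.05 the counts were 9 and 1, and by DESeq2 8 and 1. The matching shares of all genes were 2.66% and 2.25%, then 10.2% and 8.65%, then 5.2% and 4.54%. With 1 library left out, Col6a1 was called in 5 of 6 fits and Pdgfra in 4. Pdgfrb and Tagln were called in 3, Acta2 in 2 and Cxcl12 in 1. The log2 fold change was positive for 3 of the 16. These were Thy1, which encodes CD90, at 1.31 (edgeR adjusted p = 0.091), with every MSR1 KO library above every MSR1 WT library, Nt5e, which encodes CD73, at 0.46 and Lum at 0.46, all named after their values were seen. The summed level of the 16 was 2157, 2799 and 2248 CPM in MSR1 KO replicates 1 to 3 and 3816, 3016 and 3377 CPM in MSR1 WT replicates 1 to 3, or 70.6% of the MSR1 WT level. Stromal cells also express several annexins and S100 genes. The stromal level was thus lower in MSR1 KO libraries, as were Anxa1, Anxa2 and Anxa3. Within each genotype, the library with the highest stromal sum had the lowest Anxa1 level, at 189 CPM in MSR1 KO replicate 2 and 370 CPM in MSR1 WT replicate 1. Anxa3 was lowest in MSR1 KO replicate 2 (114 CPM) but highest in MSR1 WT replicate 1 (182 CPM). The part of the stromal level in the annexin result was not tested.

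Neutrophils are rich in Anxa1 and Anxa3. Of 8 neutrophil markers 0 passed the threshold in edgeR, 2 were higher at an unadjusted p under 0.05 and 1 by DESeq2. At an unadjusted p under 0.05, 8.65% of all genes were higher, and by DESeq2 4.54%. All 8 had positive log2 fold changes, and their summed level was 656 to 1065 CPM in MSR1 KO and 427 to 812 CPM in MSR1 WT libraries. Epithelial markers summed to 1.181 to 2.12 CPM in MSR1 KO and 0.337 to 1.62 CPM in MSR1 WT libraries, with the keratins Krt5, Krt8 and Krt14 at 0 in all libraries. Of the 4 B cell markers, 1 (Cd79b) had enough counts to be tested, and their sums were 19.0 to 22.5 and 15.3 to 19.98 CPM. The part of these cells in the annexin levels was not tested.

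**Figure D5:**
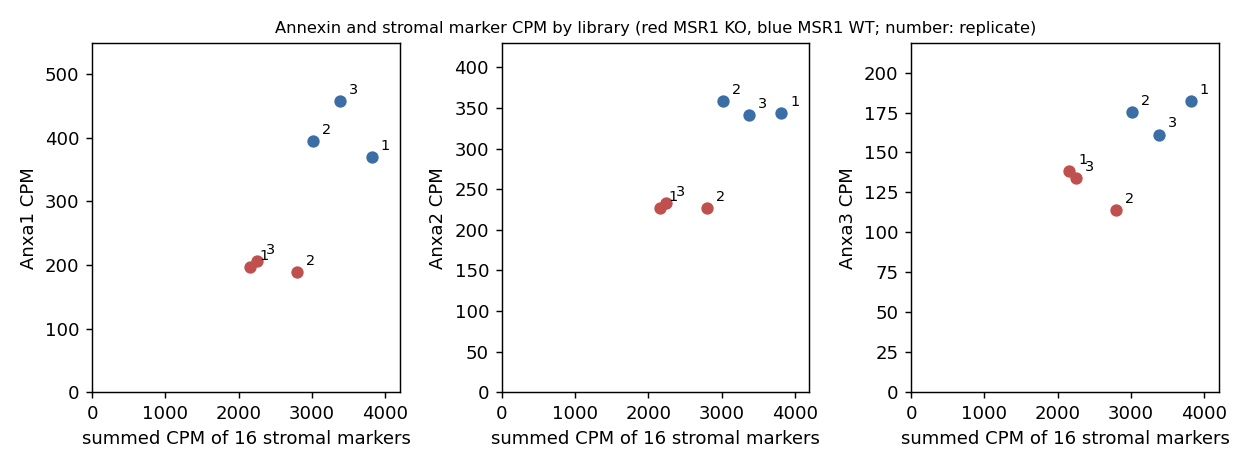
Level of Anxa1, Anxa2 and Anxa3 in CPM against the summed CPM of 16 stromal markers, with each point a library, MSR1 KO in red and MSR1 WT in blue, and the number giving the replicate. Both axes part the genotypes, with stromal sums of 2157 to 2799 CPM in MSR1 KO and 3016 to 3816 CPM in MSR1 WT libraries.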

How the data were processed

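RNA-seq of 6 macrophage libraries, 3 MSR1 KO and 3 MSR1 WT, was analysed from the table that the authors deposited. It holds raw, unnormalized counts of reads per gene, a signal column per library, which the authors obtained by dividing each count by a size factor and which was not used in tests, and columns of the authors' own comparison (log2 fold change, p and adjusted p), which were not used. The paper's methods name TopHat and FPKM values, while the submitters' processing notes name fastp 0.17.1, HISAT2 2.1.0, DESeq2 1.18.1 and R 3.4.3. Which program counted the reads, whether it used strand, and the genome build are not given in the sources used here. Of 52550 gene identifiers, 52403 were found in GENCODE M21 (GRCm38), with version suffixes ignored, and 49909 had the same start and end, so positions are on GRCm38. There were 0 value columns without a mapping. Of 27 symbols that a spreadsheet had turned into dates, 26 were restored, and 89 symbols were shared by several identifiers. The 37 mitochondrial genes had 0 counts throughout.

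Counts were filtered with filterByExpr, scaled by TMM and fitted over all genes with the quasi-likelihood test of edgeR 4.0.16 in R 4.3.3, with Benjamini-Hochberg adjustment over 16402 genes. Each standard error was obtained by dividing the log2 fold change by the root of its F statistic. Totals per library were 36143518 to 47417448 counts, and a 0 was read as up to 3 counts. The steps were tested on simulated data. The members and gene lists were chosen with earlier results of these data known. Genes named were all annexins, the S100, formyl receptor and phospholipase lists, members of other lists past the threshold or the 2 most abundant, and the 3 genes nearest to Anxa1. Plaur, Serpinb2, Tsc22d3, Thy1, Nt5e and Lum were also named, after their values were seen, and 1 gene of the plasminogen list is not reported here and was left out of its counts. Alternatives were DESeq2 1.42.0, DESeq2 size factors, library size alone, no filter, at least 10 counts per library, the replicate block, and each library left out.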

Additional observations from a re-analysis of the deposited data

How the results depend on the processing

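With Anxa1 counted, 2 to 3 members were lower and 0 were higher in all 12 alternatives, and Anxa2 was lower in each. The family was chosen on Anxa1, so its values stay a description with no test. Over all genes, 0.314% to 5.2% were lower in these alternatives. With each library left out in turn, log2 fold changes were -1.11 to -0.95 for Anxa1, -0.62 to -0.58 for Anxa2 and -0.47 to -0.34 for Anxa3. The adjusted p of Anxa2 was at most 0.047 over all alternatives. Anxa3 lost its call in 7 of 12, among them the fit without a filter (edgeR adjusted p = 0.058), which tests more genes. Anxa11 ranged from -0.034 to 0.017 with 1 library left out and turned positive without MSR1 KO replicate 1 (0.017), MSR1 KO replicate 2 (0.0097), MSR1 WT replicate 1 (0.016) or MSR1 WT replicate 2 (0.0012). The median of the members, -0.11, ranged from -0.157 to -0.086 with 1 library left out, lowest without MSR1 KO replicate 3. Partner genes called numbered 6, against 10 with DESeq2's Wald test, 3 without a filter and 0 to 5 with 1 library left out. Glucocorticoid genes called numbered 1, and 0 to 1 with 1 library left out. All genes lower numbered 436, against 795 with DESeq2, 288 without a filter and 53 to 372 with 1 library left out, where fewer samples remain. Genes higher numbered 369, against 695, 237 and 18 to 407. No scaling moved the median of all genes by over 0.1. Same-numbered libraries did not deviate together (correlations of -0.026, 0.019 and -0.0048), so the numbers give no pairing. With the replicate block, 78 genes were lower and 59 higher, 2 members were lower, and 0 partner and 0 glucocorticoid genes were called (Anxa3 adjusted p = 0.089).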
